A study of Mus musculus with 24 samples.

Results

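Pomalidomide given on top of filanesib was examined in MM.1S plasmacytomas by setting the 3 arrays of tumours treated with both drugs (Filanesib-Pomalidomide) against the 3 arrays of tumours treated with Filanesib alone. The samples were chosen by their titles and make up 6 of the 24 arrays of the series. MM.1S is a human multiple myeloma cell line. It was injected under the skin of immunodeficient CB17-SCID mice together with Matrigel, and animals with a palpable tumour were assigned at random to PBS vehicle or to drug. Doses were 10 mg/kg filanesib, an inhibitor of the mitotic kinesin KIF11, and 8 mg/kg pomalidomide, for 2 days. Both groups thus carried filanesib, and pomalidomide was the only labelled difference between them. Other groups of 3 arrays each serve here only for the effect of pomalidomide in other backgrounds. They were Control (vehicle) and Pomalidomide, Dexamethasone (0.5 mg/kg) and Pomalidomide-Dexamethasone, and Filanesib-Dexamethasone and Filanesib-Pomalidomide-Dexamethasone.

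Pomalidomide is an immunomodulatory drug that binds cereblon, the substrate receptor of a ubiquitin ligase, and turns the ligase against the lymphoid transcription factors Ikaros (IKZF1) and Aiolos (IKZF3). Both proteins are degraded, so their transcripts need not fall. In myeloma cells their loss is known to lower IRF4 and MYC and to release interferon-stimulated genes, which Ikaros family members repress. Filanesib blocks the formation of a bipolar spindle and holds dividing cells in mitosis.

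The model was 1 human cell line grown in a host that lacks mature T and B cells, and the labels leave unsaid whether every array is a different animal. The p-values therefore measure the spread between these samples, which may be technical. The arrays hold human probe sets while the labels give the organism as mouse, so mouse RNA counts only where it hybridised to human probes. In the 6 arrays, the mean level of the 22 measured plasma cell identity genes lay between 8.16 and 8.21 on the log2 scale, against medians of the same arrays of 3.66 to 3.68 over all 53617 probe sets. In bulk tumours, fewer cells of a type and less RNA per cell cannot be told apart.

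One array of each group stood apart in a gene group that matters below. Filanesib-Pomalidomide replicate 2 was the lowest of its group in 30 of 39 interferon effector genes (76.9%, against 37.4% of all genes). Filanesib replicate 2 was the lowest of its group in 34 of 35 mitotic genes (97.1%) and in 31 of 36 replication genes (86.1%), against 41.1% of all genes. The counts of risen interferon effectors and of replication and mitotic genes with a negative difference are given with and without these arrays. Counts of genes without overlap, and of genes by unadjusted p, are given with all arrays only.

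Adding pomalidomide to filanesib changed 37 of 14884 genes at an adjusted p under 0.05, which is 0.249% of the genes tested. Of these, 26 rose (0.175% of genes) and 11 fell (0.0739%). Of the 26 rises, 11 belonged to the interferon lists, 10 as effectors and 1, IRF9, as a transcription factor of the pathway. Of the 11 falls, 4 were microRNA genes (36.4%, where these make up 7.2% of the genes tested) and 1, GINS2, was a replication gene. At an unadjusted p under 0.05 there were 1593 genes (10.7%), 774 higher (5.2%) and 819 lower (5.5%). The 3 arrays of one group lay entirely above those of the other in 2861 genes (19.2%), among them all 37 that passed. Adjusted p-values here and below come from limma over all genes tested. As only 0.249% of all genes were called, the absence of a call in a short list below says little about its members.

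**Figure D1:**
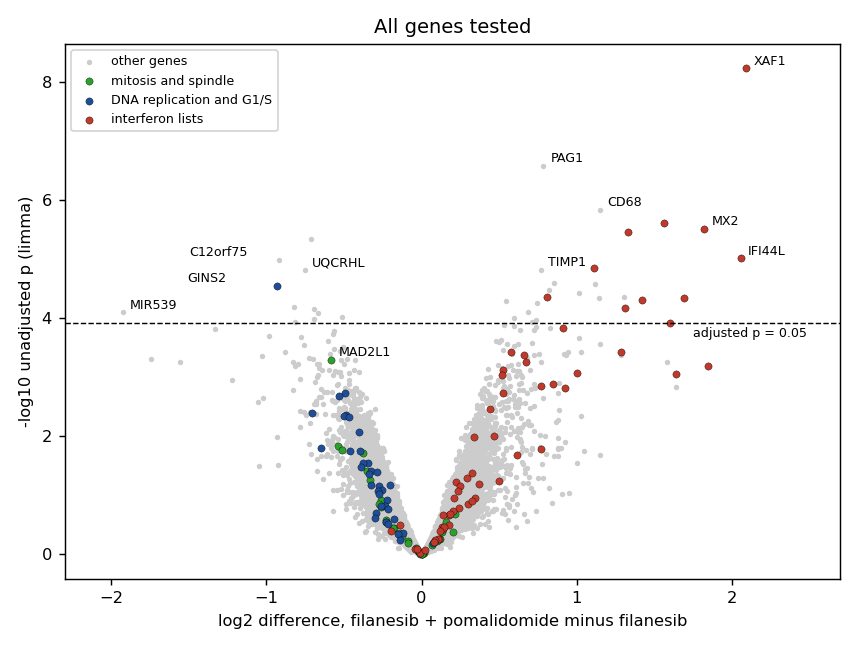
Each point is 1 of 14884 genes. The horizontal axis is the log2 difference of Filanesib-Pomalidomide minus Filanesib (3 arrays each), the vertical axis is minus log10 of the unadjusted p, and the dashed line marks an adjusted p of 0.05. Interferon genes in red spread to the upper right as far as XAF1 at 2.09, while 35 of 36 replication genes in blue lie left of 0.

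The largest rise was that of XAF1, an interferon-inducible gene whose product counters the caspase inhibitor XIAP. It measured 6.31, 6.70 and 6.26 in the Filanesib arrays and 8.80, 7.78 and 8.97 in the Filanesib-Pomalidomide arrays. All treated arrays lay above all filanesib arrays, with replicate 2 the lowest of the treated group. The difference was 2.09 ± 0.23 (log2, SE), a 4.26-fold rise, with a 95% interval of 1.61 to 2.58 and an adjusted p of 8.67e-05. It was also the only gene to pass a test against a minimum change of 1.5-fold.

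Among the antiviral effectors, MX2 encodes a dynamin-like GTPase that restricts viruses. Its levels were 4.50, 3.55 and 4.22 with filanesib and 6.42, 5.02 and 6.30 with both drugs. The groups did not overlap, and replicate 2 was the lowest array on both sides. The rise was 3.53-fold (1.82 ± 0.30, adjusted p = 0.00841). IFI44L and IFI44 are neighbouring interferon-induced genes of the same family. IFI44L went from 3.20, 3.34 and 3.52 to 5.89, 4.28 and 6.05, a rise of 2.06 ± 0.36 (adjusted p = 0.0166). IFI44 went from 3.86, 3.67 and 3.99 to 5.47, 4.94 and 5.78, a rise of 1.56 ± 0.25 (adjusted p = 0.00841). In both genes every array with pomalidomide was above every array without it, and the second treated array was the nearest to the filanesib group. SLFN5, a Schlafen family gene, was tight in the filanesib arrays at 7.10, 7.10 and 7.16 and measured 8.76, 7.81 and 8.79 with pomalidomide. Its rise was 1.33 ± 0.22 (adjusted p = 0.00841).

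The membrane proteins IFITM1 and IFITM2, which block viral entry, are products of closely similar genes that a probe set may not tell apart. IFITM1 measured 6.88, 6.87 and 7.13 with filanesib and 9.15, 7.70 and 9.10 with both drugs, a rise of 1.69 ± 0.34 (adjusted p = 0.0318). IFITM2 measured 4.68, 4.87 and 5.13 against 6.93, 6.22 and 5.79, a rise of 1.42 ± 0.29 (adjusted p = 0.0325). The order of the treated arrays differed between the pair: replicate 2 was the lowest for IFITM1 and replicate 3 for IFITM2. GBP4, a guanylate-binding protein, measured 5.78, 5.98 and 5.77 against 7.90, 6.54 and 7.90. It stood closest to the threshold among the interferon rises (1.60 ± 0.35, adjusted p = 0.0473) and missed it under 8 of 12 other settings.

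RSAD2 encodes viperin, an enzyme that makes a chain-terminating nucleotide. It measured 4.23, 4.38 and 4.22 with filanesib and 6.32, 5.01 and 5.46 with both drugs. The treated arrays were spread over more than 1 log2 unit, yet the lowest still lay above all filanesib arrays (rise 1.31 ± 0.27, adjusted p = 0.0377). HERC6, of a family of ubiquitin ligases, went from 6.36, 6.28 and 6.67 to 7.73, 7.34 and 7.59 (1.11 ± 0.20, adjusted p = 0.019). DDX60, a helicase linked to the sensing of viral RNA and not a member of the lists, went from 2.71, 2.95 and 3.06 to 4.53, 3.22 and 4.40 (1.14 ± 0.23, adjusted p = 0.0318). In DDX60 the second treated array was only just above the filanesib group, whereas in HERC6 all 3 treated arrays lay together.

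**Figure D2:**
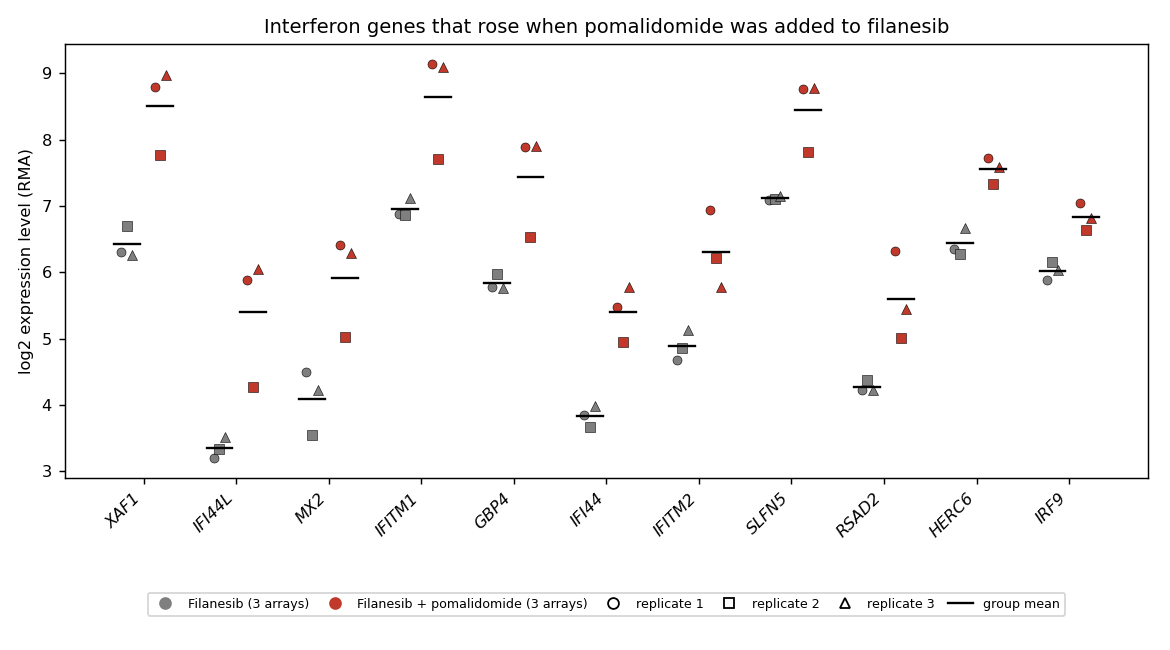
The vertical axis is the log2 expression level of the 11 interferon-list genes that rose. Points are single arrays (grey, Filanesib; red, Filanesib-Pomalidomide; circle, square and triangle for replicates 1, 2 and 3) and bars are group means of 3 arrays. In each gene the red points lie above the grey points, and the red square of replicate 2 is the lowest red point in all but IFITM2.

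As a group, 10 of 39 measured interferon effectors rose (25.6%, against 0.175% of all genes), none fell and 29 did not pass. The difference was positive in 37 of the 39, with a median of 0.53 against -0.01 over all genes, and in 25 of them (64.1%, against 9.39% of all genes) the treated arrays lay wholly above the filanesib arrays. The list had been chosen with earlier results of these data known, so its direction is a description. DTX3L lay just outside the threshold at 0.91 ± 0.20 (adjusted p = 0.0518). IFIT3 at 1.84 ± 0.47 (adjusted p = 0.0951) and IFIT1 at 1.64 ± 0.43 (adjusted p = 0.108) differed by as much as genes that passed, but with a wide spread: IFIT3 measured 5.87, 3.58 and 5.15 with both drugs against 3.05, 2.81 and 3.21 with filanesib. These last 3 genes were named after their values were seen. Leaving out replicate 2 of Filanesib-Pomalidomide brought the count of risen effectors to 17 and the median to 0.76. Without replicate 2 of both groups it was 14. Omitting Filanesib replicates 1, 2 and 3 in turn gave 2, 5 and 5, and omitting Filanesib-Pomalidomide replicates 1 and 3 in turn gave 1 and 2.

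Upstream of the effectors stand the sensors, receptors and transcription factors that carry the interferon signal. IRF9 is a DNA-binding transcription factor of the type I interferon response. It measured 5.89, 6.15 and 6.04 with filanesib and 7.05, 6.65 and 6.82 with both drugs, without overlap, and rose by 0.81 ± 0.16 (adjusted p = 0.0318). It was 1 of 23 measured genes of this list to pass (4.35%, where 0.175% of all genes tested rose). The median of the list was 0.18. STING1, the adaptor of cytosolic DNA sensing, had a difference of 1.29 ± 0.31 (adjusted p = 0.0812). Its levels were 6.05, 6.16 and 6.02 against 7.97, 6.89 and 7.25. IRF7, the factor that amplifies type I interferon production, differed by 0.77 ± 0.21 (adjusted p = 0.136). For RIGI, the sensor of viral RNA, the difference was 0.93 ± 0.26 (adjusted p = 0.141), and there the second treated array at 5.22 fell inside the range of the filanesib arrays, 4.97 to 5.25.

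Chemokines and inflammatory genes gave no call in 16 measured members, where 0.249% of all genes were called. Of the 16, 13 had a positive difference, against 7149 of all 14884 genes, and the median was 0.17. CXCL10, an interferon-induced chemokine that draws T and NK cells, had the largest difference of the list. It measured 6.77, 6.07 and 6.38 with filanesib and 8.41, 7.43 and 8.30 with both drugs. The arrays did not overlap, and the difference of 1.64 ± 0.45 had an adjusted p of 0.139. CXCL9, a related chemokine, differed by 0.88 ± 0.29 (adjusted p = 0.219). Of the antigen presentation list only 5 of 24 genes were measured and none passed (median 0.09). The largest difference there was TAPBP, the tapasin that loads peptides onto class I molecules, at 0.26 ± 0.13 (adjusted p = 0.485).

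CD68, a lysosomal membrane protein best known as a macrophage marker, rose by 1.15 ± 0.18 (adjusted p = 0.00728). It measured 8.93, 8.84 and 9.07 with filanesib and 10.42, 9.78 and 10.09 with both drugs, with a clear gap between the groups. Of 8 measured macrophage markers CD68 alone passed (12.5%, where 0.175% of all genes tested rose). The other 7 had differences between -0.23 (MSR1) and 0.10 (CD163), and the median of the list was -0.05. Summed on the linear scale, the 8 markers ranged from 1180 to 1360 in the filanesib arrays and from 1530 to 2150 with both drugs. These sums include CD68 itself, and a sum of the other 7 was not computed. The mean log2 levels of the 8 overlapped, at 4.87 to 5.01 with filanesib and 4.92 to 5.11 with both drugs. Levels on the linear scale have no true zero, and what part infiltrating cells had in the CD68 difference was not tested. No endothelial (9 measured), fibroblast (4), T and NK cell (7), smooth muscle (5) or adipocyte marker (6) passed, and no skeletal muscle marker was measured.

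CD68 also stands in the list of B lineage and myeloid receptors, where it was 1 of 24 to pass (4.17%, where 0.175% of all genes tested rose). The median of that list was 0.02. The next by p was BCL6, the germinal centre repressor, at 4.24, 4.20 and 4.22 against 4.70, 4.98 and 5.11. The groups did not overlap, and the difference of 0.71 ± 0.17 had an adjusted p of 0.0694. MILR1, an inhibitory immunoglobulin-like receptor, measured 4.74, 5.18 and 4.91 against 7.04, 5.81 and 6.74. Its difference of 1.58 ± 0.39 (adjusted p = 0.0908) was large but uneven, the second treated array lying nearest to the filanesib group. CR2, the complement receptor of B cells, had a negative difference (-0.65 ± 0.19, adjusted p = 0.158), and BLNK, an adaptor below the B cell receptor, a positive one (0.51 ± 0.16, adjusted p = 0.19).

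Of the rises outside the lists, 3 others were among the 15 largest. GAS6-DT, a divergent transcript beside GAS6, measured 5.33, 5.33 and 5.29 against 7.03, 6.17 and 6.68 (1.31 ± 0.26, adjusted p = 0.0318). CAPN6, a calpain family member without protease activity, measured 5.33, 5.50 and 5.49 against 7.15, 5.97 and 6.55 (1.12 ± 0.21, adjusted p = 0.0277). DOCK4, an activator of the GTPase Rac, measured 6.58, 6.71 and 6.88 against 7.95, 7.32 and 7.95 (1.02 ± 0.20, adjusted p = 0.0318). In each the filanesib arrays lay below all treated arrays, and the second treated array was the lowest of its group.

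The remaining 10 rises were smaller and are named after their values were seen. PAG1, an adaptor that anchors the inhibitory kinase CSK in membrane rafts, had the second smallest p of all genes. Its arrays read 4.91, 4.83 and 4.83 with filanesib and 5.62, 5.47 and 5.83 with both drugs, a difference of 0.78 ± 0.11 (adjusted p = 0.00194). Its rise was modest and even across the 3 treated arrays. TIMP1, an inhibitor of matrix metalloproteinases, rose by 0.77 ± 0.14 (adjusted p = 0.019) from 8.30, 8.37 and 8.27 to 9.22, 9.08 and 8.94. POPDC1, a membrane protein that binds cyclic AMP, rose by 0.85 ± 0.16, and CEACAM1, a cell adhesion receptor, by 0.82 ± 0.16. IRS1, which relays insulin and IGF1 signals, rose by 0.75 ± 0.15, and TCN2, the carrier of vitamin B12, by 0.74 ± 0.16. POU6F1, a homeodomain factor, rose by 0.71 ± 0.15 and SVIL, which encodes the actin-binding supervillin, by 0.69 ± 0.14. CDC42BPB, a kinase that acts below CDC42, rose by 0.59 ± 0.13, and TPCN1, an endolysosomal cation channel, by 0.54 ± 0.11. For the 8 genes after TIMP1 the adjusted p lay between 0.0277 (POPDC1) and 0.0473 (TCN2 and POU6F1).

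Among the falls, GINS2 encodes a subunit of the GINS complex, which belongs to the helicase of the replication fork. It measured 6.15, 5.38 and 5.83 with filanesib and 4.89, 4.57 and 5.10 with both drugs. The lowest filanesib array, replicate 2, was still above the highest treated array, and the fall was 1.91-fold (-0.93 ± 0.18, adjusted p = 0.0277). GINS2 was the only 1 of 36 measured replication and G1/S genes to pass, where 0.0739% of all genes tested fell. A negative difference was seen in 35 of the 36, against 7730 of all 14884 genes. The median was -0.30 against -0.01 over all genes. In 13 of the 36 (36.1%, against 9.83% of all genes) the treated arrays lay wholly below the filanesib arrays. PCNA, the sliding clamp of DNA polymerases, measured 8.99, 8.51 and 8.98 against 8.47, 8.14 and 8.28 (-0.53 ± 0.15, adjusted p = 0.155). Its groups were parted by a narrow gap, again between filanesib replicate 2 and the first treated array. CDC45, another part of that helicase, had a difference of -0.50 ± 0.14 (adjusted p = 0.146), the exonuclease EXO1 of -0.71 ± 0.22 (adjusted p = 0.205) and the helicase subunit MCM6 of -0.49 ± 0.15 (adjusted p = 0.207). The 1 positive member was DNMT1, the maintenance methyltransferase, at 0.08 ± 0.15 (adjusted p = 0.917). Negative members numbered 35 whichever of the 6 arrays was left out, and the median ranged from -0.41 (without Filanesib replicate 2) to -0.23 (without Filanesib replicate 3).

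Mitotic and spindle genes serve the process that filanesib acts on. None of 35 measured members passed (0.249% of all genes did), and 24 had a negative difference, against 7730 of all 14884 genes. The median was -0.09. With limma, 5 of the 35 had an unadjusted p under 0.05, all lower, against 5.5% of all genes. MAD2L1, a component of the spindle checkpoint, came nearest at -0.58 ± 0.14 (adjusted p = 0.089), with 6.30, 5.88 and 6.29 against 5.64, 5.40 and 5.68. KIF11, the target of filanesib, measured 9.05, 8.38 and 9.09 with filanesib and 8.78, 8.48 and 8.71 with both drugs (-0.18 ± 0.20, adjusted p = 0.8). CCNB1, the cyclin of mitotic entry, measured 7.47, 6.71 and 7.35 against 6.92, 6.91 and 7.03 (-0.23 ± 0.21, adjusted p = 0.757). In both genes filanesib replicate 2 was the lowest of all 6 arrays, and the groups overlapped. Without that array 31 of the 35 were negative, 1 member passed and the median was -0.26. Without Filanesib replicate 3 only 16 were negative, and the median was 0.00, its sign turned. Negative members numbered 22 without Filanesib-Pomalidomide replicate 2 and 30 without replicate 2 of both groups.

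**Figure D3:**
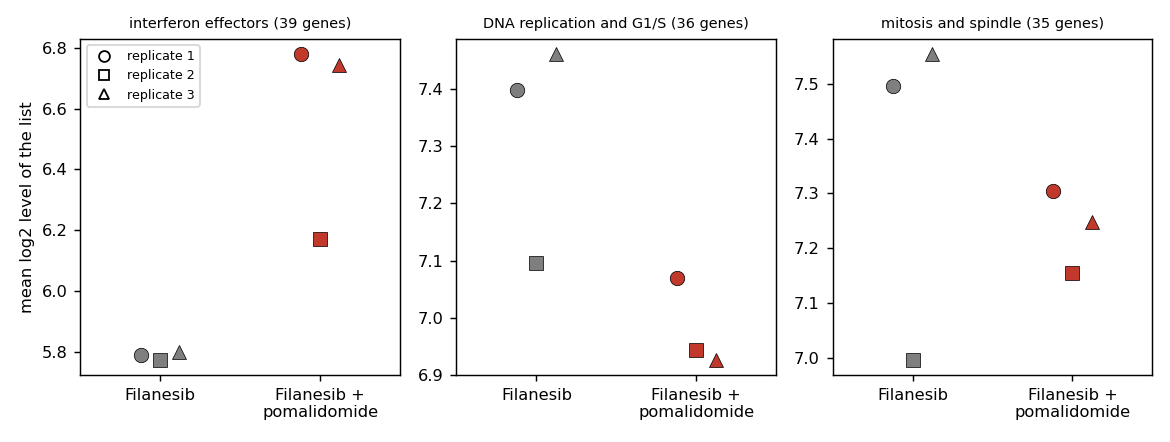
Each point is the mean log2 level of a gene list in 1 array (circle, square and triangle for replicates 1, 2 and 3; grey, Filanesib; red, Filanesib-Pomalidomide). For interferon effectors the treated arrays stand at 6.78, 6.17 and 6.74, above the filanesib arrays at 5.79, 5.77 and 5.80; for replication genes they stand at 7.07, 6.94 and 6.93, below 7.40, 7.10 and 7.46. For mitotic genes filanesib replicate 2, at 7.0, is the lowest point and the groups overlap.

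The other falls were led in size by MIR539, a microRNA gene of a large imprinted cluster. It measured 4.93, 5.93 and 5.50 with filanesib and 3.69, 3.09 and 3.79 with both drugs, a fall of 1.93 on the log2 scale (SE 0.40, adjusted p = 0.0396). The groups were well apart, although each was spread widely. Further microRNA genes that fell were MIR876 (-0.71 ± 0.12, adjusted p = 0.00978), MIR598 (-0.82 ± 0.18, adjusted p = 0.0473) and MIR4429 (-0.70 ± 0.14, adjusted p = 0.0378). MIR598 passed under only 5 of 11 other settings. MIR876 measured 2.91, 2.69 and 2.59 against 2.05, 2.03 and 1.97 and MIR4429 3.10, 3.42 and 3.31 against 2.73, 2.36 and 2.64. These 2 were the only called genes at or below the median of all probe sets in both groups. Of 1072 microRNA genes measured, 4 fell (0.373%, against 0.0739% of all genes), none rose and the median was -0.01. This class was picked out after its values were seen. The probe sets are named by the microRNA gene, and whether they read the hairpin, the primary transcript or the mature microRNA was not tested.

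Among protein-coding falls, C12orf75 went from 5.19, 4.52 and 5.24 to 4.04, 4.02 and 4.14 (-0.92 ± 0.16, adjusted p = 0.0166). TRIM16, a tripartite motif protein linked to autophagy, went from 4.62, 4.88 and 4.48 to 3.75, 3.65 and 4.11 (-0.82 ± 0.17, adjusted p = 0.0377). In C12orf75 the treated arrays were nearly alike, and in neither gene did the groups overlap. UQCRHL, a near copy of a respiratory complex III subunit gene, fell by 0.75 (SE 0.14, adjusted p = 0.019), and RPL36AL, a ribosomal protein gene with a close relative, by 0.51 (SE 0.11, adjusted p = 0.045). The pseudogene LSP1P5 fell by 0.69 (SE 0.15, adjusted p = 0.0455) and the readthrough locus MSANTD3-TMEFF1 by 0.67 (SE 0.14, adjusted p = 0.0396). Signal of these last 4 may include their related or overlapping genes, which the array may not separate.

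Transcripts of the drug's own targets did not pass. IKZF1 measured 7.49, 7.38 and 7.30 with filanesib and 7.79, 7.75 and 7.81 with both drugs. All treated arrays were higher, but the difference of 0.39 ± 0.13 had an adjusted p of 0.246. IKZF3 (0.08 ± 0.20, adjusted p = 0.932) and CRBN, the gene of cereblon itself (-0.01 ± 0.11, adjusted p = 0.984), overlapped between groups. None of 11 measured genes of the cereblon ligase and its substrates passed (0.249% of all genes did), and their median was 0.11.

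IRF4, the factor on which myeloma cells depend, measured 10.02, 10.29 and 10.01 with filanesib and 9.48, 10.01 and 9.78 with both drugs. The second treated array overlapped the filanesib group, and the difference of -0.35 ± 0.23 had an adjusted p of 0.635 and a 95% interval of -0.82 to 0.12. MYC, its partner in myeloma growth, differed by 0.08 ± 0.13 (adjusted p = 0.889), with an interval of -0.19 to 0.34. None of 22 measured genes of IRF4, MYC and plasma cell identity passed (0.249% of all genes did). Of these, 11 were positive and 11 negative (median 0.00). CD48, a surface ligand of the SLAM family, came nearest at -0.56 ± 0.13 (adjusted p = 0.0806). It measured 9.35, 9.12 and 9.01 against 8.50, 8.67 and 8.64, with no overlap. The chemokine receptor CCR1 differed by 0.49 ± 0.13 (adjusted p = 0.123). Of the antibody targets of myeloma therapy, CD38 differed by 0.24 ± 0.10 (adjusted p = 0.356) and SLAMF7 by -0.15 ± 0.12 (adjusted p = 0.707), and TNFRSF17 was not measured.

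Death and survival genes gave no call, where 0.249% of all genes were called. BCL2L11, which encodes the death activator BIM, measured 6.64, 7.0 and 6.49 with filanesib and 7.23, 7.13 and 7.35 with both drugs. The treated arrays were all higher, and the difference was 0.53 ± 0.21 (adjusted p = 0.351, interval 0.09 to 0.96). Its relative BMF differed by 0.39 ± 0.14 (adjusted p = 0.302). On the survival side BCL2 differed by 0.45 ± 0.18 (adjusted p = 0.331), the kinase PIM2 by 0.30 ± 0.12 (adjusted p = 0.38) and MCL1 by 0.07 ± 0.12 (adjusted p = 0.893). The medians were -0.02 over 12 death genes and 0.08 over 12 survival genes, and with limma 3 and 2 of them had an unadjusted p under 0.05, against 10.7% of all genes.

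Metabolic and stress lists also held no gene that passed, where 0.249% of all genes did and 7730 of all 14884 had a negative difference. Of 17 measured genes of the ATF4 amino acid response 13 had a negative difference (median -0.08), the largest in PSAT1 (-0.53 ± 0.17, adjusted p = 0.214) and PHGDH (-0.43 ± 0.12, adjusted p = 0.141), enzymes of serine synthesis, with the asparagine synthetase ASNS at -0.42 ± 0.13 (adjusted p = 0.188). Of 24 cholesterol and fatty acid genes 19 were negative (median -0.13). INSIG1, which holds the sterol sensor in the endoplasmic reticulum, measured 9.16, 8.91 and 9.08 against 8.51, 8.47 and 8.62 (-0.52 ± 0.15, adjusted p = 0.158). Its groups did not overlap. The medians of the endoplasmic reticulum, ribosome production and hypoxia lists lay between -0.08 and -0.05, and those of the glucocorticoid and immediate early lists were 0.03 and 0.04.

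**Figure D4:**
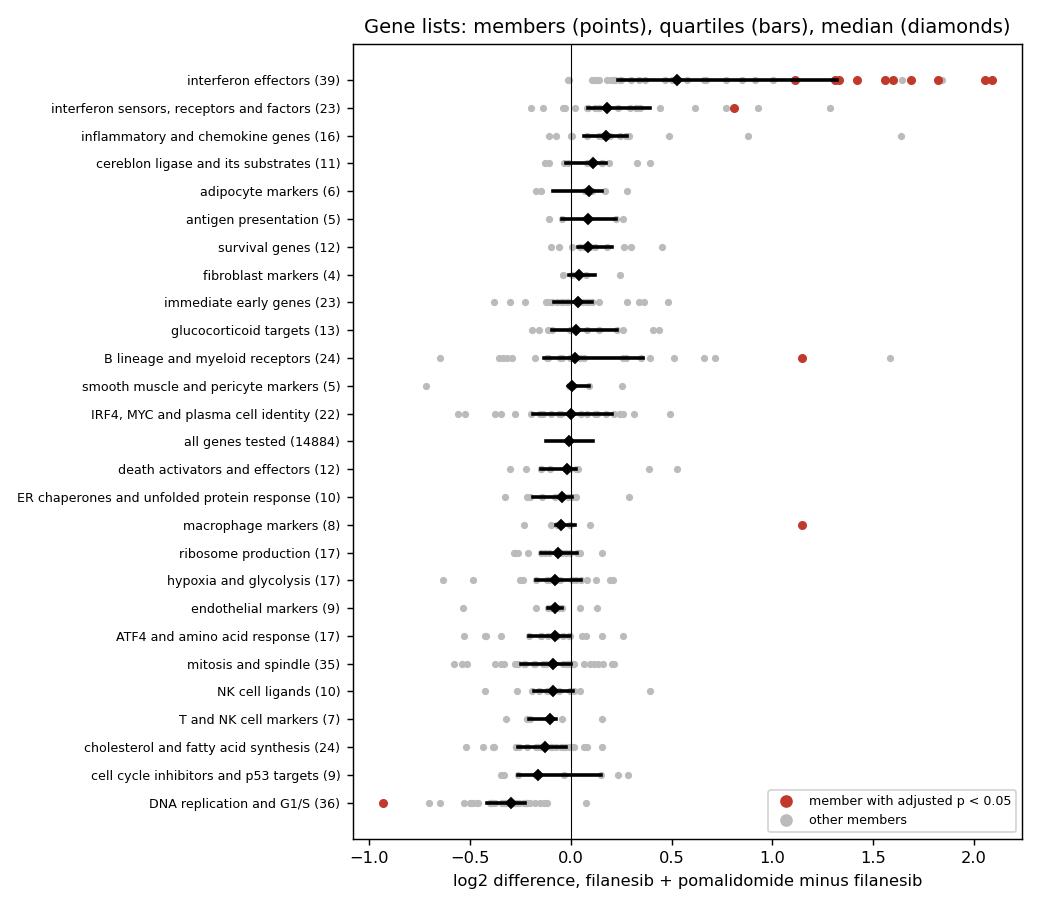
Each row is a gene list with the number of measured members in parentheses. Points are the members' log2 differences of Filanesib-Pomalidomide minus Filanesib (red, adjusted p under 0.05; grey, others), black bars run from the first to the third quartile and diamonds are medians. Interferon effectors lie farthest right with a median of 0.53 and replication genes farthest left at -0.30, while all genes tested centre at -0.01.

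The same drug had been added in 3 other backgrounds, none of which shares an array with the comparison above. Alone it changed 294 genes (1.98%), on top of dexamethasone 4 (0.0269%) and on top of filanesib plus dexamethasone 4 (0.0269%). Of the 37 genes that passed beside filanesib, 34, 36 and 34 had the same sign in these backgrounds, against 55%, 58.2% and 58.3% of all genes. Genes also called there numbered 15 (40.5% of the 37 and 5.1% of the 294), 3 (8.11% of the 37 and 75% of the 4) and 3 (8.11% and 75%). Across all genes, which are not independent replicates, Pearson's r with the difference beside filanesib was 0.26, 0.37 and 0.40 in the same order. The replication list, with a median of -0.30 beside filanesib, had medians of -0.64, -0.24 and -0.32 in these backgrounds. With pomalidomide alone 18 of its 36 genes fell, against 219 of all 14884 genes. The median of the interferon effectors was 0.53 beside filanesib and 0.41, 0.295 and 0.44 in the others.

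The 26 rises, with a median of 1.12 beside filanesib, had medians of 0.68, 0.70 and 0.74 in the other backgrounds, and 25, 26 and 26 of them were positive. The 11 falls had a median of -0.75 beside filanesib and -0.53, -0.21 and -0.06 elsewhere. Genes chosen for passing here will tend to be smaller elsewhere, and whether rises and falls differ in this was not tested. XAF1 differed by 1.5, 1.19 and 1.5 in the 3 other backgrounds and MX2 by 0.96, 0.93 and 1.34. CD68 differed by 0.94, 1.11 and 0.78. TIMP1, by contrast, differed by 0.09, 0.31 and 0.10, SVIL by -0.27, 0.07 and 0.08 and TRIM16 by 0.04, 0.06 and -0.01, and MIR539 by -1.70, -1.56 and 0.02. In the last background MIR539 was already low without pomalidomide (group mean 3.49, against 5.45 with filanesib alone). The means of MIR876, MIR598 and MIR4429 without pomalidomide were lower there too (2.00, 3.72 and 2.71, against 2.73, 4.07 and 3.27). Their differences in that background were -0.06, -0.07 and 0.09. What part these levels had in the differences there was not tested.

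Tests of the difference itself did not single out any of the 37. Against pomalidomide with no other drug, 4 of 14884 genes passed (0.0269%), all lower beside filanesib and none among the 37, and 1571 (10.6%) had an unadjusted p under 0.05. Against pomalidomide beside filanesib plus dexamethasone no gene passed with limma, and 576 (3.87%) had an unadjusted p under 0.05. Against the mean of the 3 other backgrounds no gene passed with limma, and 877 (5.89%) had an unadjusted p under 0.05. XAF1 rose by 0.59 more than with no other drug, with a 95% interval of -0.10 to 1.27 (adjusted p = 0.555). The corresponding excess was 0.68 for TIMP1 (interval 0.26 to 1.09, adjusted p = 0.257), 0.96 for SVIL (interval 0.54 to 1.38, adjusted p = 0.134) and -0.86 for TRIM16 (interval -1.36 to -0.37, adjusted p = 0.257). For BCL2L11 it was 0.67 (interval 0.06 to 1.29, adjusted p = 0.417) and for IKZF1 0.58 (interval 0.20 to 0.97, adjusted p = 0.261). None of these intervals is adjusted for the number of genes tested. The 37 genes were chosen by the difference beside filanesib, which is part of the excess, so their excess tends to be overstated. The 3 Pomalidomide arrays had a larger spread around their group means (0.24 to 0.35, residual SD) than the 6 arrays compared above (0.17 to 0.20), and its part in these tests was not tested.

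**Figure D5:**
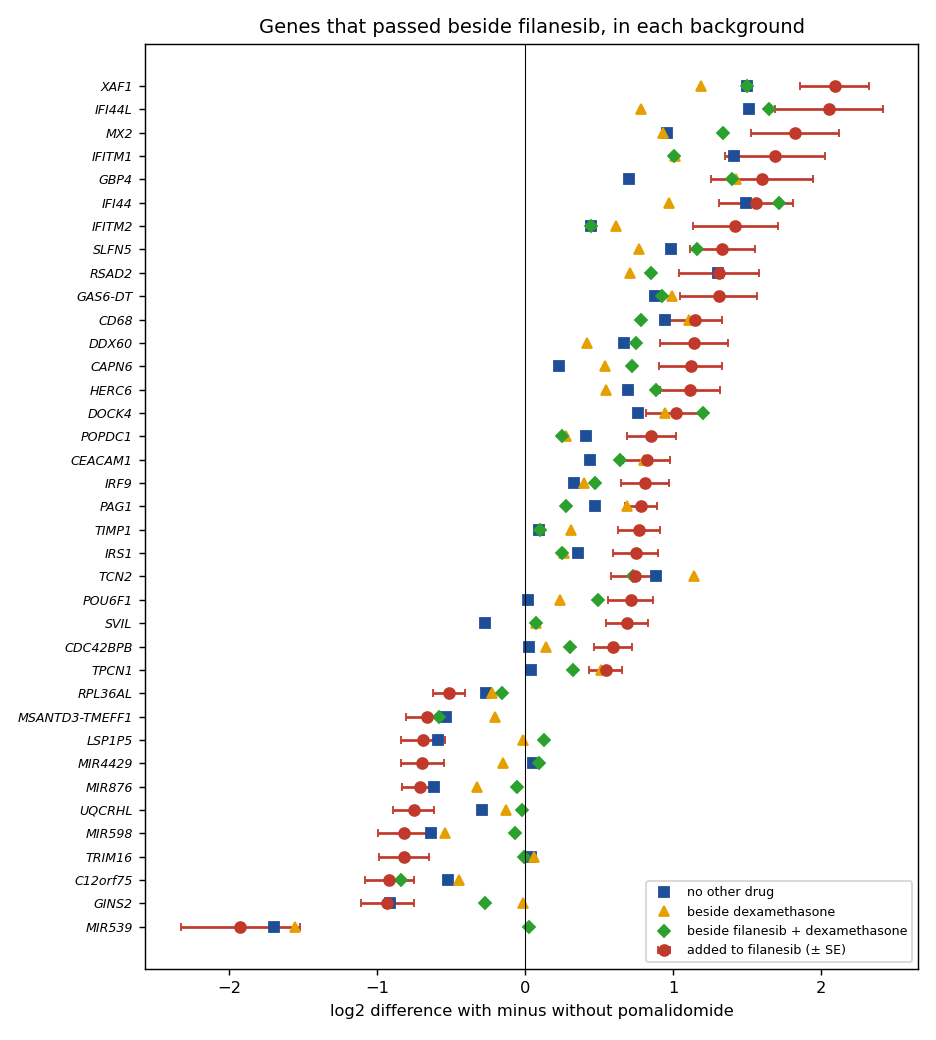
Each row is 1 of the 37 genes that passed when pomalidomide was added to filanesib. The horizontal axis is the log2 difference with minus without pomalidomide: red circles with bars show it beside filanesib (± SE), blue squares with no other drug, orange triangles beside dexamethasone and green diamonds beside filanesib plus dexamethasone. Rises keep a positive sign in 25, 26 and 26 of 26 genes in the other backgrounds, and several falls, such as TRIM16, lie near 0 there.

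The 4 genes whose response differed from that to pomalidomide alone were small Cajal body RNAs, which guide the chemical modification of spliceosomal RNAs. SCARNA5 measured 9.06, 9.24 and 8.68 with filanesib and 7.07, 7.37 and 7.31 with both drugs. It measured 6.88, 8.51 and 7.01 in the controls and 9.03, 8.71 and 10.29 with pomalidomide alone. The arrays with pomalidomide were thus the lower ones beside filanesib and the higher ones without it, by -1.74 and 1.88, and the difference between the responses was -3.62 ± 0.61 (adjusted p = 0.0168). It was -3.37 ± 0.57 for SCARNA6 (adjusted p = 0.0168), -2.25 ± 0.32 for SCARNA10 (adjusted p = 0.00505) and -1.62 ± 0.27 for SCARNA12 (adjusted p = 0.0168). None of the 4 passed in the comparison of both drugs with filanesib alone, where the nearest was SCARNA5 (adjusted p = 0.0888). The class was picked out after its values were seen and includes these 4. Of its 23 genes 20 had a negative difference there (median -0.35), and in 9 (39.1%, against 9.83% of all genes) the arrays with both drugs lay wholly below those with filanesib. Without Pomalidomide replicate 2 the count of genes that differed rose from 4 to 152. It was 1 without each of Control replicates 1 and 3, Filanesib replicates 2 and 3, Pomalidomide replicate 3 and Filanesib-Pomalidomide replicates 1 and 3.

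The count of 37 moved with single arrays. Omitting Filanesib replicates 1, 2 and 3 in turn gave 4, 28 and 9 genes, of which 4, 17 and 9 were among the 37. Omitting Filanesib-Pomalidomide replicates 1, 2 and 3 in turn gave 2, 70 and 9, of which 2, 28 and 8 were among the 37. XAF1 and PAG1 passed in all 6 omissions, CD68 in 5 (not without Filanesib-Pomalidomide replicate 1), MX2 in 4, 5 genes in 3, 10 genes in 2, 12 in 1 and 6 in none. The 6 were MIR539, MIR4429, SVIL, TCN2, RPL36AL and MSANTD3-TMEFF1. The 12 were IFITM1, RSAD2, GBP4, DDX60, CAPN6, DOCK4, GAS6-DT, CEACAM1, CDC42BPB, POU6F1, TRIM16 and LSP1P5. Without an array of another group, Pomalidomide replicate 3, the count was 76, all 37 included.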

How the data were processed

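Plasmacytoma RNA was measured on 24 Affymetrix arrays. Each deposited value is the log2 level of a probe set. The submitters' processing notes name RMA and Affymetrix Expression Console, without versions. Quantile normalisation within RMA hides a shift shared by most genes. Of 53617 probe sets, 16098 had 1 gene symbol, none had several and 37519 had none. For 779 genes with several probe sets the one with the highest mean over all 24 arrays was used, which left 14884 genes.

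All 24 arrays entered 1 limma 3.58.1 model with group means as coefficients (R 4.3.3, 16 residual degrees of freedom, eBayes), with two-sided p-values adjusted by Benjamini-Hochberg within each comparison and a threshold of 0.05. The median SE of a log2 difference was 0.14. Precision is limited by the 3 arrays per group. Lists not described in the results held no gene that passed.

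Genes were named by rule: the 15 largest rises and 15 largest falls that passed without overlap, up to 5 members per list by smallest p, up to 10 genes passing each test of a difference, and 14 genes of the drugs' targets and myeloma biology. The genes and lists were chosen with earlier results of these data known. The labels do not say whether replicate numbers pair the arrays, and the main fit assumed no pairing. Alternatives covered scaling, dim genes, probe set choice, variance model, array weights, a replicate block and omitted arrays. Sequences were not used here.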

Additional observations from a re-analysis of the deposited data

Results flagged for a closer look

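The response to pomalidomide beside filanesib differed from the response to pomalidomide with no other drug in 4 small Cajal body RNA genes, by a direct test of that difference in limma. The differences were -3.62 for SCARNA5, -1.62 for SCARNA12, -3.37 for SCARNA6 and -2.25 for SCARNA10. In SCARNA6 the arrays read 7.78, 8.63 and 8.29 with filanesib, 7.21, 7.42 and 7.29 with both drugs, 6.53, 7.35 and 6.15 in controls and 8.82, 8.74 and 9.82 with pomalidomide alone.

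Outside the genes tested, a fit of all 53617 probe sets gave 10 probe sets with no gene symbol that passed, 6 higher and 4 lower with both drugs, beside 8 named ones.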

How the results depend on the processing

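The count of 37 genes became 322 with array weights (182 higher, 140 lower, all 37 included) and 1 with a minimum change of 1.5-fold. It was 15 when only the compared groups were fitted, 9 of them among the 37. Without Pomalidomide replicates 1 and 3 it was 79, all 37 included. It lay between 33 and 44 under the other planned settings, with the replicate block at 34. Deviations from the group means correlated at 0.07, 0.16 and -0.03 between compared arrays of the same number. Between arrays of different numbers they correlated at -0.142 to 0.089. With 3 arrays a group these values cannot decide whether the numbers pair the arrays. Leaving out 1 array of the compared groups gave 2 to 70. Leaving out replicate 2 of both, chosen after seeing the data, gave 45, of which 23 were among the 37. Leaving out 1 array of the other groups, also added later, gave 25 to 76. The count of 4 for the difference from pomalidomide alone became 2 with a trended and robust prior, 0 with the 1.5-fold minimum, 2 when only the groups compared were fitted, 0 with protein-coding genes only, 0 without Pomalidomide replicates 1 and 3, and 1 to 152 without 1 array. The differences from the other backgrounds stayed at 0 under every setting run; the fit of only the groups compared was not run for the mean of the other 3, which uses all groups. Signs turned for CRBN (0.0021 with array weights, -0.0507 to 0.0432 without 1 array), IKZF3 (-0.0456 to 0.2451 without 1 array) and MYC (-0.0045 to 0.20 without 1 array). The cause of these shifts was not tested. Risen interferon effectors numbered 1 to 17 without 1 array. With 3 arrays a group and a median SE of 0.14, small differences were not detectable, and signal over background was not measured.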

Other observations

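Ligands that NK cells recognise on tumour cells gave no call when pomalidomide was added to filanesib, where 0.249% of all genes were called. Of 10 measured, 7 had a negative difference (median -0.09), among them the adhesion ligand CD58 at -0.43 ± 0.16 (adjusted p = 0.326) and the stress ligand MICB at -0.27 ± 0.11 (adjusted p = 0.36). CD58 measured 5.67, 5.72 and 5.39 with filanesib and 5.30, 4.80 and 5.38 with both drugs, so the nearest arrays of the groups were almost level. Cell cycle inhibitors and p53 targets gave no call either, with 6 of 9 measured members negative and a median of -0.16.

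IRF4 can be set beside its values in the other backgrounds. Its difference with pomalidomide was -0.35 beside filanesib and -0.74 with no other drug. It was -0.54 beside dexamethasone and -0.53 on top of the filanesib and dexamethasone pair, negative in all 4. Beside filanesib IRF4 did not pass, and its arrays overlapped between the groups. The sign beside filanesib was shared by 55%, 58.2% and 58.3% of all genes in the other backgrounds, in that order.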
